A study of Sus scrofa with 92 samples.

Results

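Liver biopsies taken 8 hours into full resuscitation (FR8) were compared between the pigs labelled as having died and those labelled as having lived. The comparison holds 22 of the 92 libraries of the series, 5 from animals that died (3 FS, 2 CPF) and 17 from animals that lived (15 FS, 2 CPF). Membership follows the survival label, the letter D or L after the digits of the sample title, read here as died or lived. The paper's text does not define this letter, and describes euthanasia of animals after recovery. The FR8 library of CPF animal 3, an animal that lived, was left out because it holds almost no counts. All animals were male Yorkshire-Landrace pigs that were splenectomized under anesthesia and then received a blunt chest injury, a hemorrhage to a low systolic pressure and a liver crush injury, followed by limited and then full resuscitation with fluid, their shed blood and ventilation. All were fasted overnight. FS (fasted) animals received nothing further, and CPF (carbohydrate prefed) animals were given a bolus of Karo syrup 1 hour before induction. The biopsy at FR8 is an earlier sample of animals that were later classed by outcome, and each of the 23 animals, those that died included, was also sampled at Baseline (B), FR2 and FR20. The time and cause of death are not given in the sources used here. The series was designed to compare feeding groups and timepoints, and survival is a label that accompanies the samples.

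The liver makes most plasma proteins. After injury its hepatocytes raise positive acute phase proteins, complement components and fibrinogen under the control of cytokines such as IL6, and lower albumin and other negative acute phase proteins. Ischemia and reperfusion also act on sinusoidal endothelium and Kupffer cells, and they draw neutrophils into the tissue. Fatty acid oxidation, ketogenesis, gluconeogenesis and urea synthesis in hepatocytes supply fuel and remove nitrogen during this phase.

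The 5 libraries of animals that died held 11159561 to 13408683 counts on genes and the 17 of animals that lived 8855156 to 15547165. Among all 231 pairs of FR8 libraries none were identical, and every pair differed by more than counting error. Each library was also correlated with the median profile of B, FR2, FR8 and FR20 over the other animals, across the 1000 most variable well-expressed genes. All 5 libraries of animals that died lay nearest the FR8 profile, with r from 0.910 to 0.972. Of the 17 of animals that lived, 5 lay nearer another timepoint by at least 0.05 in r. FS animals 17, 19 and 21 had r of 0.974, 0.948 and 0.980 with B, against 0.682, 0.765 and 0.688 with FR8. FS animal 10 had r of 0.958 with FR2 against 0.836 with FR8, and FS animal 9 had 0.962 with FR20 against 0.875. These 5 animals also stood apart at other timepoints. The FR2 libraries of FS 17, 19 and 21 lay nearest the FR8 profile, and their FR20 libraries nearest FR2. For FS 10 the B library lay nearest FR8 and the FR2 library nearest FR20. For FS 9 the FR20 library lay nearest FR8. The cause of these shifts was not tested. CPF animal 13 was as near FR20 as FR8, at 0.920 for both. A sixth library, of FS animal 11, was listed at 0 for 660 of 6760 well-counted genes. These 6760 had a median count above 100 over the 91 usable libraries of the series. No other FR8 library was at 0 for more than 1 of them. The 660 include all 13 mitochondrial protein genes. Neighbouring genes were missing together, since 497 of the 498 that could be placed in RefSeq's Sscrofa11.1 annotation had a neighbour that was also at 0. Labels were kept as deposited, and counts, list medians and the genes described in most detail are given with all 22 libraries and again without these 6 libraries, which leaves 5 animals that died and 11 that lived (16 libraries).

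**Figure D1:**
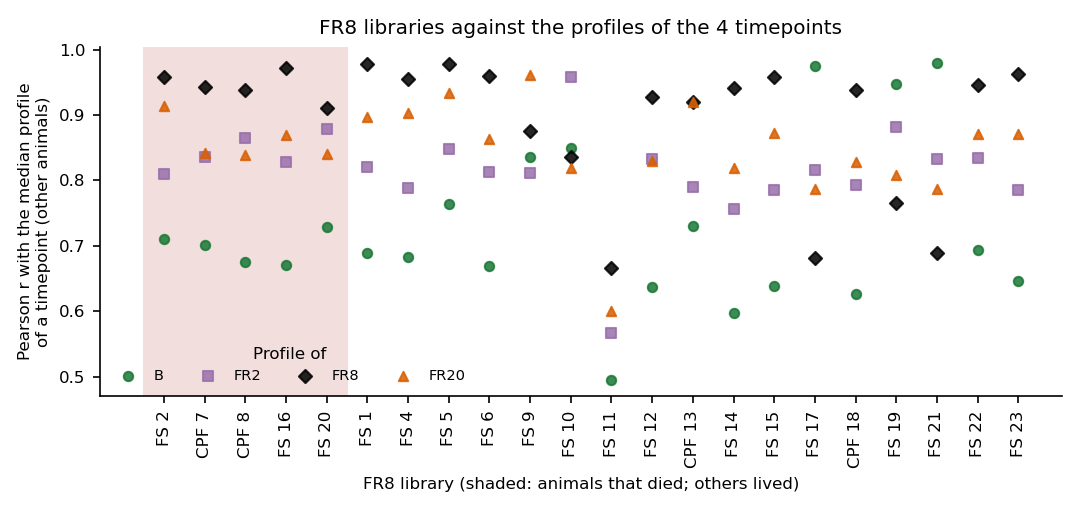
Pearson r of each FR8 library with the median profile of each timepoint over the other animals, by library, with animals that died shaded. The 5 libraries of animals that died sit nearest FR8 (black diamonds), whereas FS 17, FS 19 and FS 21 sit nearest B, FS 10 nearest FR2, FS 9 nearest FR20, and FS 11 is low against all 4 profiles.

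Every library carried hepatocyte messages at high level. Summed over 17 hepatocyte markers, CPM (counts scaled to a common library size, with TMM factors) were 87045, 104584, 81358, 96367 and 63488 in died animals 2, 7, 8, 16 and 20, and ran from 70312 to 241911 in animals that lived (median 85504). The highest 4 were the libraries of FS 17, 21, 19 and 10, and without the 6 libraries the highest was 129672. Albumin (ALB), the main plasma protein, was at 35825 to 56454 CPM in died animals and 33776 to 140001 CPM in animals that lived. Its log2 fold change, died over lived, was -0.55 ± 0.42 (SE), and -0.15 with 16 libraries. Transthyretin (TTR), a carrier of thyroid hormone and retinol, differed by -0.63 ± 0.57 with 22 libraries and by 0.12 with 16. In bulk tissue fewer cells of a type and less RNA per cell cannot be told apart.

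No gene passed the test between animals that died and animals that lived. With edgeR's quasi-likelihood test and a term for feeding group, 0 of 11951 genes (0%) reached a Benjamini-Hochberg adjusted p under 0.05 with a log2 fold change of at least 1 in either direction, and 265 (2.22%) had an unadjusted p under 0.05, 154 of them higher (1.29%) and 111 lower (0.929%) in animals that died. The lowest unadjusted p was 0.00066. DESeq2, edgeR's likelihood ratio test and limma voom with library quality weights also called 0 genes, with 405, 274 and 370 at an unadjusted p under 0.05. Without the 6 libraries the quasi-likelihood test called 0 of 11627 (0%), with 395 (3.4%) at an unadjusted p under 0.05, 208 higher (1.79%) and 187 lower (1.61%). An exact permutation test over all 4896 splits of the animals within feeding groups gave a p under 0.05 for 282 of 11951 genes (2.36%), and for 378 (3.16%) with 16 libraries. After adjustment over all genes its lowest p was 0.999. Its smallest possible p was 2e-04 with 22 libraries and 0.00076 with 16. Over 11951 genes it could therefore pass only if many genes shared that smallest p. The count at an unadjusted p under 0.05 with 22 libraries was 146 without died animal 20 and 176 without died animal 8. Each library is a separate animal, so the tests measure the spread between animals.

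A missing call does not show that the groups were alike, and the intervals give the differences that the data allow. The median half-width of the 95% confidence interval of a log2 fold change was 0.62 over all genes tested and 0.45 over the 6562 genes at an average of at least 10 CPM. For 7306 of 11951 genes (61.1%) the whole interval lay within a 2-fold difference in either direction, that is within 1 on the log2 scale. With the 6 libraries left out the median half-width was 0.48, and 8852 of 11627 intervals (76.1%) lay within 1, as did 6174 of the 6705 (92.1%) at an average of at least 10 CPM. The median log2 fold change over all genes was -0.01 in both sets, with 48.9% above 0 with 22 libraries and 47.8% with 16.

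**Figure D2:**
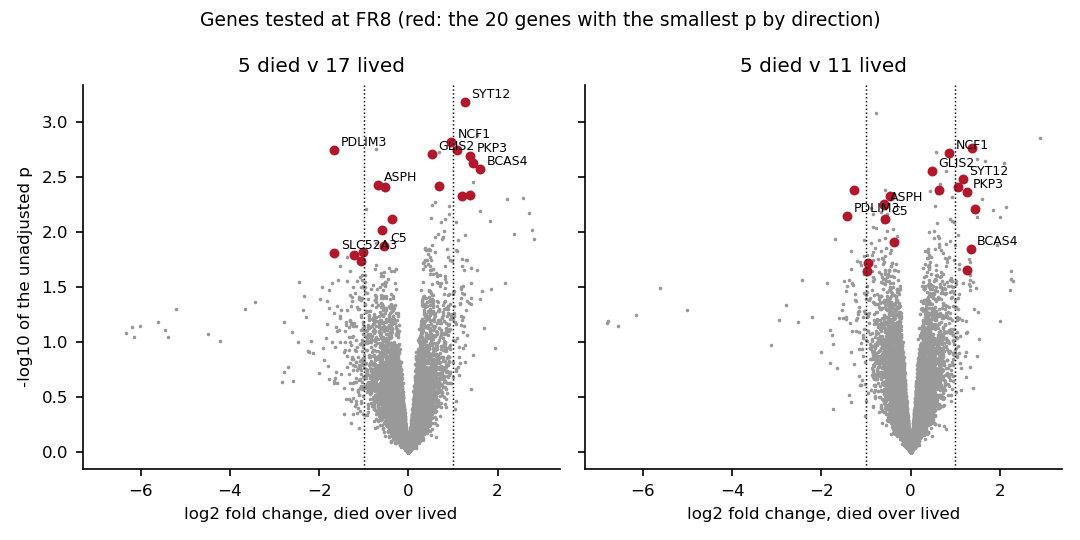
Log2 fold change (died over lived, horizontal) against -log10 of the unadjusted p (vertical) for every gene tested, with 17 (left) and 11 (right) animals that lived. Red points are the 10 genes with the smallest p in each direction with 17 animals, and dotted lines mark a 2-fold difference. None passed the adjusted threshold.

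The genes with the smallest unadjusted p are given as descriptions, since none passed. Their exact permutation p is unadjusted. That p and the values with 16 libraries come from the same animals that picked these genes, and are no separate evidence. In no gene tested did the 5 animals that died lie wholly above or wholly below the 17 that lived. Without the 6 libraries, 1 gene (0.00837%) lay wholly above and 0 (0%) wholly below. The gene was POLR2C, an RNA polymerase II subunit, which is named after its values were seen. It was at 27.09 to 29.01 CPM in animals that died and at 23.96 to 27.07 CPM in the 11 that lived, a log2 difference of 0.16 ± 0.09, and one of the 6 libraries left out was at 37.7 CPM.

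Among genes that were higher in animals that died, SYT12, a synaptotagmin of vesicle traffic, had the smallest p. It was at 3.92, 14.7, 2.17, 6.79 and 7.56 CPM in died animals 2, 7, 8, 16 and 20, and at 1.10 to 5.36 CPM (median 2.56) in animals that lived. Only animals 7, 16 and 20 lay above all that lived. The log2 fold change was 1.26 ± 0.32 (p = 0.00066, exact permutation p = 0.0047), and 1.18 with 16 libraries. NCF1, the p47phox subunit of the phagocyte NADPH oxidase, was at 4.94, 2.53, 5.98, 8.26 and 7.07 CPM against 1.37 to 5.59 CPM (median 3.11). This gave a log2 fold change of 0.97 ± 0.27 (95% interval 0.41 to 1.52, exact permutation p = 0.0022), with animal 7 below the median of animals that lived. With 16 libraries the NCF1 difference was 0.87. GLIS2, a zinc finger transcription factor, was at 18.54, 13.99, 22.54, 17.3 and 20.5 CPM against 8.93 to 17.2 CPM (median 12.9). Here 4 of the 5 lay above every animal that lived, with a difference of 0.53 ± 0.15 on the log2 scale (exact permutation p = 0.0018), and 0.47 with 16 libraries.

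The other genes of this direction were more uneven. FAM167B was at 15.4 to 52.5 CPM in animals that died and 5.69 to 25.1 CPM in those that lived, with a log2 fold change of 1.10 ± 0.31 (1.07 with 16 libraries). SMAD6, an intracellular inhibitor of BMP signaling, was at 10.8 to 20.0 CPM against 4.22 to 11.4 CPM, a log2 difference of 0.68 ± 0.21 (0.64 with 16 libraries). B4GALT4, a galactosyltransferase, was low in both groups, at 0.73 to 1.88 CPM against 0.19 to 1.08 CPM (1.21 ± 0.39, and 1.38 with 16 libraries). Animal 20 set the size of 4 others. ITGB3, the integrin beta chain of platelets and endothelium, was at 179 CPM in animal 20, 68.2 CPM in animal 8 and 9.55 to 29.4 CPM in the other 3, against 7.72 to 53.1 CPM in animals that lived. Its log2 fold change of 1.39 ± 0.44 became 0.05 without animal 20, and its exact permutation p was 0.264. Without animal 20, BCAS4 moved from 1.62 to 0.31, PKP3, a plakophilin of desmosomes, from 1.38 to 0.67, and FABP3, the heart-type fatty acid binding protein, from 1.45 to 0.63. With 16 libraries and all 5 animals that died, ITGB3, BCAS4, PKP3 and FABP3 differed by 1.27, 1.34, 1.26 and 1.45.

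Among genes that were lower in animals that died, PDLIM3, a PDZ and LIM domain protein of the actin cytoskeleton, had the smallest p. Its levels were 0.47, 0.66, 0.53, 0.28 and 0.79 CPM, against 0.49 to 3.96 CPM (median 1.87) in animals that lived. This was a log2 fold change of -1.66 ± 0.47 (exact permutation p = 0.0020), and -1.42 with 16 libraries. ASPH, an aspartate hydroxylase of the endoplasmic reticulum, was at 24.8, 26.6, 19.4, 27.3 and 14.6 CPM against 24.6 to 51.0 CPM (median 37.8), a log2 difference of -0.68 ± 0.21. OSTF1 was at 50.1 to 71.6 CPM against 61.4 to 120 CPM (-0.53 ± 0.17). SYNE2, the nuclear envelope protein nesprin-2, was at 26.4 to 49.5 CPM against 32.9 to 79.7 CPM (-0.58 ± 0.21). SYNJ2BP, an outer mitochondrial membrane protein, differed by -0.36 ± 0.12. In each of these the highest values of animals that died overlapped the lowest of those that lived. With 16 libraries ASPH, OSTF1, SYNE2 and SYNJ2BP differed by -0.60, -0.47, -0.61 and -0.37.

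The last 5 of the 10 lower genes were C5, TRMT9B, SLC52A3, RETSAT and ZNF852. C5, the complement component that starts the membrane attack complex, is described with its pathway. RETSAT, a retinol saturase, was at 4.13 to 26.1 CPM against 14.5 to 104 CPM, with animal 7 the lowest (-1.21 ± 0.47). TRMT9B, a tRNA methyltransferase, differed by -1.01 ± 0.39 and the zinc finger gene ZNF852 by -1.07 ± 0.42, at 0.66 to 1.49 CPM against 0.47 to 4.08 CPM and at 0.28 to 0.83 CPM against 0.20 to 2.72 CPM. SLC52A3, a riboflavin transporter, was at 0 to 0.46 CPM against 0.13 to 1.32 CPM (-1.66 ± 0.63), and did not pass the filter on low counts with 16 libraries. In that set RETSAT, TRMT9B and ZNF852 differed by -0.98, -0.95 and -1.28.

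**Figure D3:**
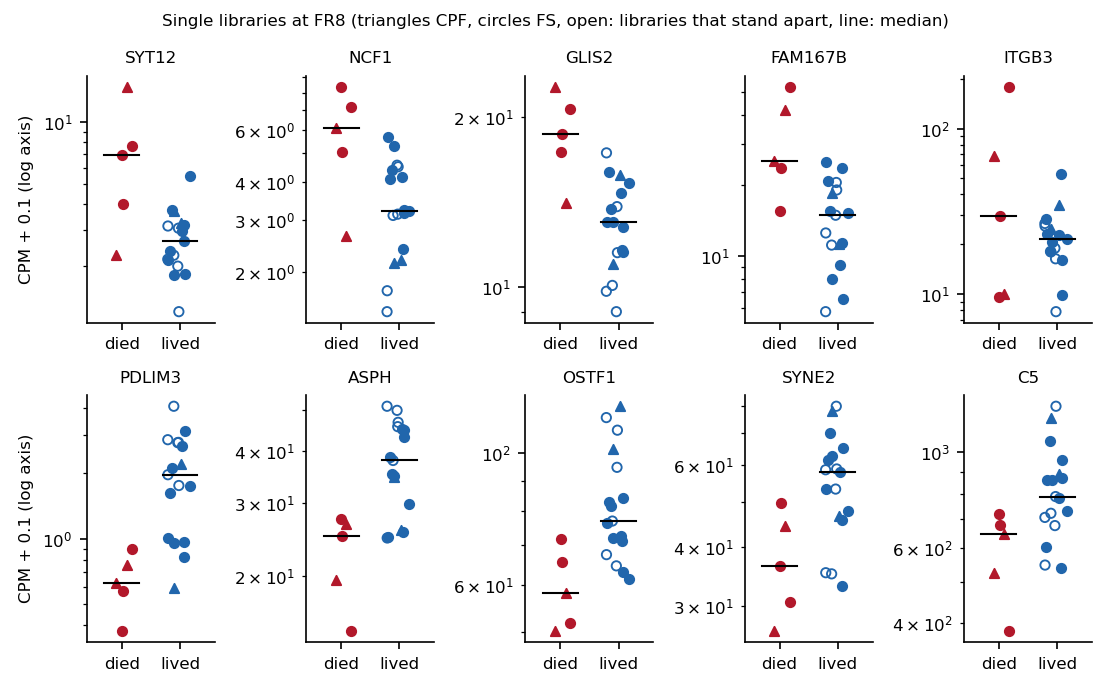
CPM plus 0.1 (log axis) of 10 of these genes in each FR8 library, for animals that died (red) and lived (blue). Triangles are CPF, circles FS, open symbols the 6 libraries that stand apart, and lines the medians. The groups overlap in every gene, and for ITGB3 animals 20 and 8 (179 and 68.2 CPM) lie above all that lived.

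Complement genes had lower levels on average in animals that died, and none passed the adjusted test. Of 22 listed genes 19 were tested, 0 were above 0 in log2 fold change and 4 had an unadjusted p under 0.05, all of them lower (0.929% of all genes tested were lower at that p). The median log2 fold change of the list was -0.37, against -0.01 over all genes tested. Summed CPM of the list were 15293, 14467, 11464, 15760 and 8101 in died animals 2, 7, 8, 16 and 20, and 12743 to 26194 (median 17472) in animals that lived. Animals 8 and 20 lay below all that lived, and the other 3 lay within their range.

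C5 was at 676, 646, 523, 716 and 384 CPM in these animals against 539 to 1279 CPM (median 788), a log2 fold change of -0.55 ± 0.20 (95% interval -0.97 to -0.13). C9, which polymerizes into the membrane pore, was at 849, 831, 210, 372 and 467 CPM against 353 to 1310 CPM (median 889; -0.74 ± 0.30). CFB, the protease of the alternative pathway, was at 2081, 2241, 1651, 2458 and 1120 CPM against 1650 to 3761 CPM (-0.54 ± 0.22). C4A, of the classical and lectin pathways, was at 1550, 1097, 795, 1481 and 492 CPM against 1103 to 2536 CPM (-0.62 ± 0.25). C3, the central component, was at 2946, 1874, 2933, 3133 and 1424 CPM against 916 to 5507 CPM, with a log2 fold change of -0.36 ± 0.33. Animal 20 was the lowest of the 5 for C5, CFB, C4A and C3, and animal 8 for C9. Without animal 20 the list's median was -0.23 and 0 of its genes had a p under 0.05, and without animal 8 it was 2. With 16 libraries the median was -0.24, with 3 of 19 genes at a p under 0.05, all lower, and 4 above 0. In that set C5, C9, CFB, C4A and C3 differed by -0.57, -0.85, -0.42, -0.54 and -0.49, and the list's median was -0.13 without animal 20, with 2 genes at a p under 0.05. The part of the lower hepatocyte marker sum of animal 20 in these values was not tested.

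Secreted acute phase genes leaned the same way with wide intervals. Of 14 positive acute phase proteins tested 1 was above 0, with a median log2 fold change of -0.22 (-0.27 with 16 libraries), and 0 had a p under 0.05 with 22 libraries and 1 with 16. A pair of identifiers carries the symbol CRP, the opsonin C-reactive protein. The more abundant was at 3066, 3342, 1270, 3332 and 2032 CPM against 877 to 6721 CPM (median 3620), a log2 fold change of -0.52 ± 0.37, and -0.60 ± 0.27 with 16 libraries. The other differed by -0.09 ± 0.38. For the most abundant identifier of each fibrinogen chain, FGA, FGB and FGG differed by -0.20 ± 0.47, -0.23 ± 0.34 and -0.16 ± 0.39, and by -0.44, -0.25 and -0.28 with 16 libraries. Summed CPM of the positive list were lowest in animal 20 (45728) and highest in animal 7 (136631), and ran from 46353 to 170100 in animals that lived. Leaving out animal 20 brought the list's median to -0.06, and leaving out animal 16 to -0.47.

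Of 9 negative acute phase proteins 1 was above 0 with 22 libraries (median -0.50) and 6 with 16 (median 0.03). GC, the vitamin D binding protein, had an unadjusted p under 0.05 in both sets, at 1392 to 2548 CPM in animals that died against 1961 to 5809 CPM, with log2 fold changes of -0.63 ± 0.27 and -0.40 ± 0.18. Of 17 coagulation and fibrinolysis genes 4 were above 0 (median -0.26, and -0.03 with 16 libraries). PLAT, tissue plasminogen activator, was the exception at an unadjusted p under 0.05, with 21.1, 17.7, 99.4, 7.99 and 41.7 CPM in animals 2, 7, 8, 16 and 20 against 6.36 to 31.8 CPM. Its log2 fold change was 1.11 ± 0.41 and its exact permutation p was 0.0797, with animals 8 and 20 above all that lived and animal 16 below their median of 9.82. With 16 libraries PLAT differed by 0.97.

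Neutrophil markers were higher on average in animals that died, and none passed the adjusted test. All 7 identifiers tested were above 0, with a median log2 fold change of 1.22, and 1.00 with 16 libraries. In both sets 1 had a p under 0.05 (1.29% and 1.79% of all genes tested were higher at that p). With 22 libraries the median was 0.73 without died animal 2 and 0.65 without died animal 16. The count of 1 became 0 without died animal 8 or lived animal 1, 4, 5, 6, 13 or 23, 2 without died animal 2 or 7 or lived animal 10 or 14, and 3 without lived animal 22. MMP9, a neutrophil gelatinase, was at 4.06, 0.56, 0.99, 0.46 and 1.34 CPM against 0 to 2.56 CPM (median 0.53), a log2 fold change of 1.32 ± 0.61. Without animal 2 it was 0.46, and with 16 libraries and all 5 animals it was 2.09 ± 0.59. S100A8, S100A9 and S100A12, alarmins of neutrophils and monocytes, differed by 1.31 ± 0.73, 1.22 ± 0.74 and 1.30 ± 0.63, and by 1.00, 1.01 and 1.04 with 16 libraries. S100A9 was at 1.69, 8.36, 13.5, 9.73 and 3.90 CPM against 0.095 to 13.03 CPM (median 2.20). The range of animals that lived thus covered 4 of the 5. The summed neutrophil list was 374 to 1410 CPM in animals that died and 209 to 1773 CPM in animals that lived, and most of this sum is ARG1 (2 identifiers), which hepatocytes also express.

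In the list of chemokines and adhesion molecules 9 of 13 genes were above 0, against 48.9% of all genes tested, and 2 had an unadjusted p under 0.05, both higher (1.29% of all genes). With 16 libraries 11 were above 0 and 1, SELE, had such a p. SELE (E-selectin), which captures leukocytes on activated endothelium, was at 2.03, 0.19, 1.64, 0.73 and 0.37 CPM against 0 to 0.75 CPM, a log2 fold change of 1.601 ± 0.533 (exact permutation p = 0.0202) with animals 2 and 8 above all that lived, and 1.33 with 16 libraries. CXCL8, a neutrophil chemoattractant, was at 0.68, 0.66, 2.76, 3.03 and 2.25 CPM against 0 to 4.59 CPM (median 0.15; 1.84 ± 0.81, and 1.53 with 16 libraries). The list's median was 0.08 with 22 libraries and 0.31 with 16. With 22 libraries the count of 2 became 0 without died animal 8, 1 without died animal 16 or 20, and 3 without lived FS 12. Of 9 endothelial markers 8 were above 0, with a median of 0.29 (0.25 with 16 libraries). TIE1, an endothelial receptor, differed by 0.29 ± 0.15 (0.24 with 16), and EGFL7, the most abundant of them, by -0.29 ± 0.25.

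Markers of lymphocytes, macrophages, stromal and biliary cells and adipocytes had medians from -0.12 to 0.07 with 22 libraries and from -0.17 to 0.09 with 16. CD8A of cytotoxic T cells was at 4.46, 3.47, 2.23, 10.4 and 6.58 CPM against 1.47 to 6.23 CPM (0.79 ± 0.28), whereas GZMA, a granzyme of the same cells, was at 0.20 to 0.55 CPM against 0.22 to 4.53 CPM (-1.54 ± 0.62). With 16 libraries they differed by 0.92 and -1.69. A second GZMA identifier differed by -0.05 ± 0.43, and the 12 T and NK cell markers had a median of 0.07. NKG7, their most abundant member, differed by 0.18 ± 0.18. Kupffer cell and macrophage markers had a median of 0.07 over 6 genes, with C1QA at -0.14 ± 0.25 and TIMD4 of resident macrophages at -0.32 ± 0.25. Medians were 0.01 for 4 B and plasma cell markers (MS4A1 -0.40 ± 0.57, POU2AF1 -0.20 ± 0.48), -0.12 for 11 stellate and fibroblast markers (PDGFRB 0.58 ± 0.29, COL3A1 -0.17 ± 0.30), -0.06 for 4 cholangiocyte markers (SPP1 0.53 ± 0.70) and -0.12 for 2 adipocyte markers (PLIN1 -0.42 ± 0.66, CIDEC 0.19 ± 0.43). The 2 erythroid markers turned from a median of -0.63 to 0.62 without the 6 libraries, with HBB, beta globin, at -0.71 ± 1.31 and 0.50 ± 0.42. The 17 hepatocyte markers had a median of -0.28, and 0.07 with 16 libraries.

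Striated muscle markers were at or near 0 in animals that died. Of 6 tested 0 were above 0 and NEB had an unadjusted p under 0.05. ACTA1, skeletal actin, was at 0 to 0.14 CPM in the 5, and among animals that lived it was at 49.9 CPM in FS 15, 13.7 CPM in FS 19, 7.37 CPM in FS 4 and under 1 CPM in the rest. NEB, nebulin, was at 0.18 CPM or less in animals that died and reached 6.04 CPM in those that lived. These are at most 2 counts of either gene in a library of the 5, and no fold is read from them.

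Interferon-stimulated genes were lower on average in animals that died, none passed the adjusted test, and 3 animals that lived had the highest summed levels. All 15 tested were below 0 in log2 fold change, with a median of -1.05 (-1.17 with 16 libraries), and 4 had an unadjusted p under 0.05, all lower (0.929% of all genes tested were lower at that p). With 16 libraries it was 5, all lower (1.61% of all genes), and 0 without died animal 7 or 8. Their summed CPM were 243, 173, 332, 280 and 341 in died animals 2, 7, 8, 16 and 20. The same sum was 2018 in lived FS 12, 1070 in lived CPF 18 and 690 in lived CPF 13, and 208 to 502 in the other 14. MX1, an antiviral GTPase, was at 30.1, 19.2, 67.9, 46.3 and 51.9 CPM in animals that died, and at 459, 374 and 117 CPM in these 3 against a median of 36.0 CPM over all that lived. MX1 differed by -1.14 ± 0.69. IRF9, the DNA-binding part of the interferon-induced ISGF3 complex, was less uneven, at 33.4, 26.2, 31.5, 40.3 and 50.8 CPM against 35.1 to 101 CPM (median 46.4; -0.52 ± 0.22). IFI44, OAS2 and IFI44L differed by -1.11 ± 0.50, -1.27 ± 0.59 and -0.79 ± 0.34. With 16 libraries MX1, IRF9, IFI44, OAS2 and IFI44L differed by -1.46, -0.58, -1.34, -1.17 and -0.80. Leaving out FS 12 brought the list's median to -0.46, and the count of 4 genes with a p under 0.05 became 0 without died animal 7 or 8, 1 without died animal 2 or 16 or lived CPF 18, and 2 without lived CPF 13. Both CPF animals that lived were among the 3.

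Genes of hepatic fatty acid oxidation had lower levels on average in animals that died, and none passed the adjusted test. Of 20 fatty acid oxidation and ketogenesis genes 0 were above 0 with 22 libraries (median -0.35) and 1 with 16 (median -0.23). With 22 libraries 2 had an unadjusted p under 0.05, both lower (0.929% of all genes tested were lower at that p), and with 16 it was 1, HADHA. HADHA, the alpha subunit of the mitochondrial trifunctional protein, was at 208, 179, 144, 264 and 112 CPM in animals 2, 7, 8, 16 and 20, against 183 to 855 CPM (median 314). HADHA differed by -0.72 ± 0.29 (95% interval -1.31 to -0.12, exact permutation p = 0.0137), and -0.62 ± 0.21 with 16 libraries. Animals 7, 8 and 20 lay below all that lived. ACADL, an acyl-CoA dehydrogenase, was at 17.5 to 44.7 CPM against 19.3 to 90.2 CPM (-0.73 ± 0.34, and -0.57 with 16 libraries). CPT1A, which admits long-chain fatty acids to mitochondria, differed by -0.49 ± 0.36 (-0.23 with 16). Summed CPM of the list were 6001, 4777, 3562, 6186 and 2567 against 3481 to 8804. Without animal 20 the median was -0.22 and 0 genes had a p under 0.05, and without animal 2 it was 4 genes. The count was 1 without died animal 16 or lived animal 4, 9, 13, 15, 17, 19 or 21, and 3 without lived animal 18.

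Sterol and fatty acid synthesis depended on the libraries that stand apart. With 22 libraries 0 of 19 cholesterol synthesis and uptake genes were above 0, with a median log2 fold change of -0.82. Without the 6 libraries 7 of 19 were above 0 and the median was -0.07. Summed CPM were 1110 to 1607 in animals that died, 9435, 9397 and 5097 in FS 17, 21 and 19, 4101 in FS 9, and 1000 to 1874 in the 11 that lived and did not stand apart. SQLE, squalene epoxidase, differed by -1.78 ± 0.85 and -0.60 ± 0.36 in the 2 sets. Fatty acid synthesis genes moved from a median of -0.33 to 0.19. SCD, the stearoyl-CoA desaturase, was at 45.5, 239, 72.1, 28.7 and 215 CPM in died animals 2, 7, 8, 16 and 20. It was at 978, 405 and 225 CPM in FS 17, 21 and 19, and at 13.6 to 166 CPM (median 27.6) in the 11. Its log2 fold change was -0.18 ± 1.03 with 22 libraries and 1.48 ± 0.41 (unadjusted p = 0.0022, adjusted p = 0.998) with 16. FADS1, a fatty acid desaturase, moved from -0.73 ± 1.09 to 0.87 ± 0.29, and FASN, fatty acid synthase, from -1.15 ± 1.48 to 0.86 ± 0.41. With FADS2 (0.66 ± 0.28) these were the 4 of 13 genes at an unadjusted p under 0.05 with 16 libraries, all higher (1.79% of all genes). In that set the list's median was 0.016 without died animal 20, with 0 genes at that p, and 0.05 without died animal 8, with 3. DGAT1, which makes triglyceride, had the smallest p of this list with 22 libraries, at -0.39 ± 0.24.

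In the other metabolic lists FMO5 alone had an unadjusted p under 0.05 with 22 libraries, and with 16 it was NR1H4 and KLB, PPP1R3C and HLF, all lower. Medians went from -0.52 to -0.24 for 11 bile acid genes (NR1H4, the bile acid receptor FXR, -0.33 ± 0.16, and -0.33 with 16 libraries), from -0.43 to -0.19 for 12 gluconeogenesis and glycogen genes (PC, pyruvate carboxylase, -0.52 ± 0.30, then -0.49) and from -0.20 to 0.12 for 29 urea cycle and amino acid catabolism genes (FAH -0.44 ± 0.22, then -0.31). They went from -0.44 to -0.22 for 11 cytochrome P450 and conjugation genes (FMO5 -2.34 ± 1.06, then -0.60 ± 0.53), from -0.28 to -0.11 for 11 heme and iron genes (FECH, ferrochelatase, -0.25 ± 0.17) and from -0.44 to 0.16 for circadian clock genes (HLF -1.02 ± 0.53, then -1.04). IGF and insulin signaling genes went from -0.21 to -0.13 (IGF1 -0.74 ± 0.42) and antioxidant genes from -0.17 to -0.22 (CAT, catalase, -1.40 ± 0.72, then -0.43 ± 0.33). Glycolysis genes had medians of 0.15 and 0.02, with the kinase PKM at 0.40 ± 0.21.

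**Figure D4:**
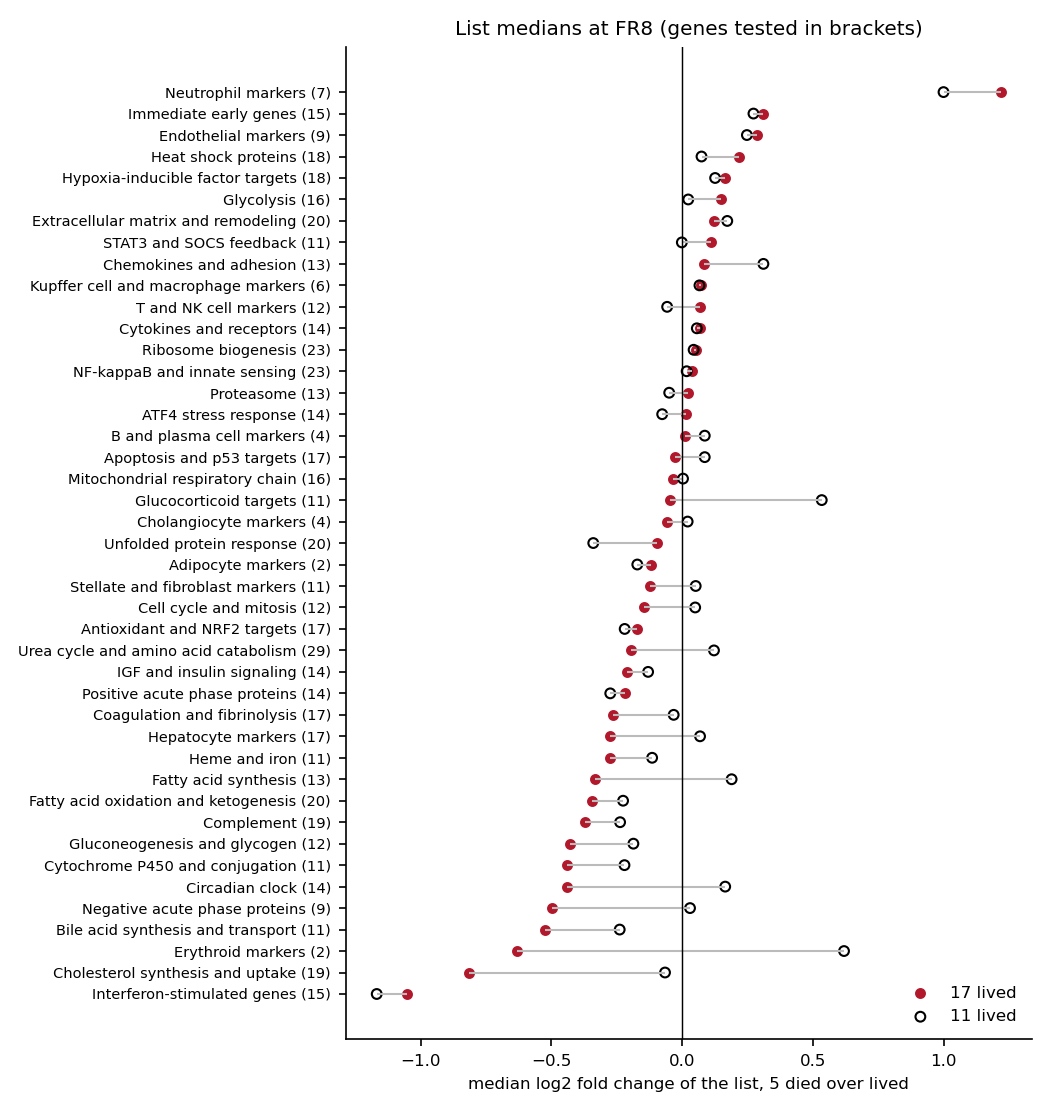
Median log2 fold change, 5 animals that died over animals that lived, for 43 gene lists, with 17 (red) and 11 (open) animals that lived. Striated muscle markers are not drawn. Lists of interferon-stimulated genes (-1.05 and -1.17) and neutrophil markers (1.22 and 1.00) hold their side, whereas cholesterol synthesis moves from -0.82 to -0.07 and fatty acid synthesis from -0.33 to 0.19.

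Stress and hormone target lists had medians from -0.10 to 0.31 with 22 libraries and from -0.34 to 0.53 with 16. Glucocorticoid target genes had a median of -0.05 with 22 libraries, which was 0.18 without died animal 2 and 0.05 without died animal 16. With 16 libraries the median was 0.53, with 9 of 11 genes above 0, and it was 0.89 without died animal 2 and -0.08 without died animal 20, with 5 above 0. FKBP5, a glucocorticoid-induced co-chaperone, was at 9.61, 23.9, 26.3, 24.1 and 26.6 CPM in animals 2, 7, 8, 16 and 20 against 4.11 to 37.2 CPM (0.52 ± 0.42, and 0.69 with 16 libraries). NR3C1, the glucocorticoid receptor, differed by -0.29 ± 0.28 and -0.52 ± 0.18. Unfolded protein response genes had medians of -0.10 and -0.34 in the 2 sets (0.10 and -0.11 without died animal 20), and summed CPM spread from 7332 in animal 20 to 26634 in animal 7 against 5250 to 40034 in animals that lived. XBP1, a transcription factor of this response, differed by -0.24 ± 0.24. Heat shock proteins had medians of 0.22 and 0.07 (DNAJB1 0.60 ± 0.37, then 0.36), hypoxia-inducible factor targets 0.16 and 0.13 (EGLN3 0.73 ± 0.40, then 0.43), and immediate early genes 0.31 and 0.27. FOS was at 9.40, 66.2, 39.0, 17.4 and 49.8 CPM against 2.79 to 88.9 CPM (1.03 ± 0.49, and 0.82 with 16 libraries).

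Medians over the remaining lists with 22 libraries were between -0.14 and 0.12. NF-kappaB and innate sensing genes were at 0.04 (IRAK3, a negative regulator of Toll-like receptor signaling, -0.75 ± 0.44), cytokines and receptors at 0.07 (IFNGR1 0.38 ± 0.19), and STAT3 and SOCS feedback genes at 0.11 (JUNB 0.60 ± 0.37). The ATF4 stress response was at 0.01 (FGF21 -1.53 ± 0.77), and apoptosis and p53 targets at -0.03 (TP53INP1 -1.53 ± 0.89, then -0.26 ± 0.18 with 16 libraries). Extracellular matrix genes were at 0.12 (COL6A3 0.49 ± 0.28), cell cycle genes at -0.14 (CDC20 0.69 ± 0.45), respiratory chain subunits at -0.04 (SDHB -0.23 ± 0.22), ribosome biogenesis factors at 0.05 (NPM1 0.24 ± 0.18) and proteasome subunits at 0.02 (PSMC1 0.13 ± 0.15). No member of these 10 lists had an unadjusted p under 0.05 with 22 libraries. With 16 libraries their medians ran from -0.08 to 0.17, and 4 members had such a p, IRAK3 (-1.003), TLR3 (-0.59) and MDM2 (-0.58) lower and JUNB (0.76) higher.

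**Figure D5:**
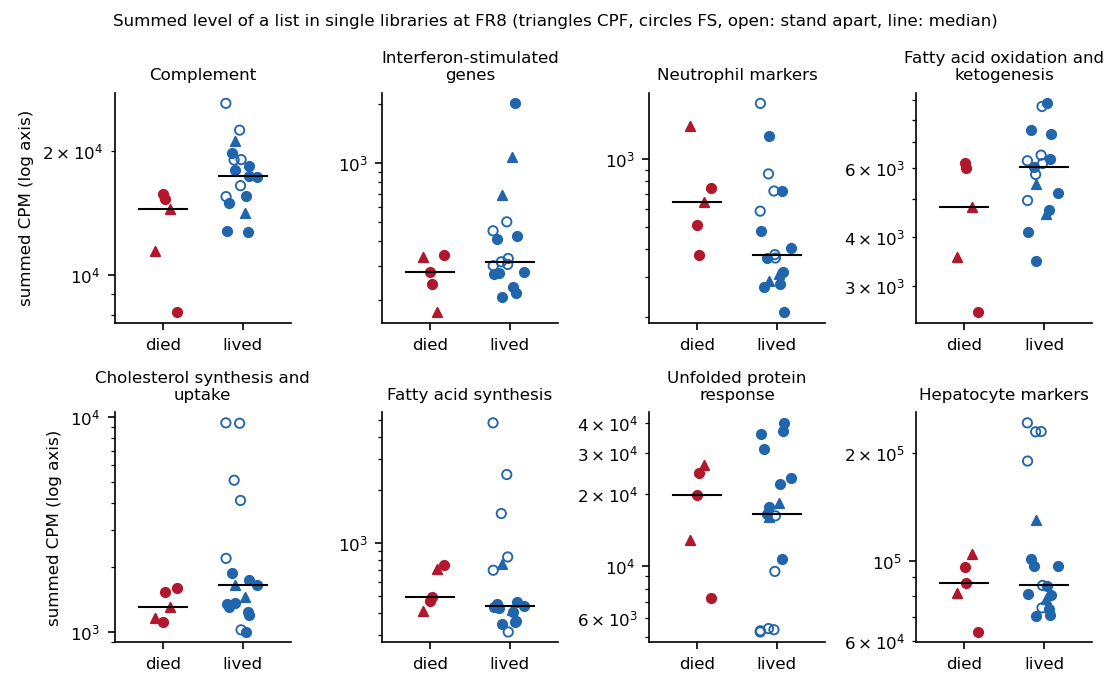
Summed CPM (log axis) of 8 gene lists in each FR8 library, for animals that died (red) and lived (blue). Triangles are CPF, circles FS, open symbols the 6 libraries that stand apart, and lines the medians. For complement, animal 20 (8101) and animal 8 (11464) lie below every animal that lived, and for cholesterol synthesis the highest values are open symbols.

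The survival effect was also compared between feeding groups. The survival effect in CPF minus that in FS passed for 0 of 11951 genes (0%), with 281 at an unadjusted p under 0.05, and for 0 of 11627 without the 6 libraries, with 409. The likelihood ratio test called 0 and DESeq2 called 1, an identifier without a symbol (ENSSSCG00000024816, log2 difference 1.75 ± 0.38, adjusted p = 0.0381). The CPF effect rests on 2 animals against 2. In FS animals alone (3 against 15) 0 of 11687 genes passed, with 208 at an unadjusted p under 0.05, and in CPF animals alone 0 of 9544, with 215. SYT12 differed by 1.24 ± 0.31 in FS and 1.30 in CPF animals, NCF1 by 0.93 ± 0.31 and 1.07, and C5 by -0.45 ± 0.25 and -0.83. PKP3 differed by 1.72 ± 0.44 in FS and 0.49 in CPF animals, and the difference between these was -1.27 ± 0.95, and -1.18 ± 0.86 without the 6 libraries. All of these genes were picked for a small p at FR8 over the same libraries. A like direction in both feeding groups is thus partly built in and adds no separate evidence.

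A change from Baseline within the same animal asks whether livers of animals that died moved differently up to FR8. Animals 17, 19 and 21 were left out because their Baseline libraries hold muscle messages and nearly no albumin. These libraries had r of -0.19, -0.05 and -0.21 with the B profile. Of the rest, 0 of 12639 genes (0%) passed for the change in 5 animals that died minus that in 14 that lived, with 530 at an unadjusted p under 0.05, and DESeq2 also called 0. On this log2 scale PKP3 differed by 2.16 ± 0.66, NCF1 by 1.21 ± 0.43, SYT12 by 0.97 ± 0.39 and SYNE2 by -0.82 ± 0.26. For C5 the difference in change was -0.41 ± 0.26. All of these genes were picked for a small p at FR8, and this fit holds the same FR8 libraries. A difference in change is thus partly built in and adds no separate evidence. PKP3 was also lower at B in animals that died, by -0.92 ± 0.59 without the libraries that stand apart. Without every animal whose B or FR8 library stands apart (5 against 11), 0 of 12450 genes passed, with 705 at an unadjusted p under 0.05. The differences in change were then 1.91 ± 0.58 for PKP3, 1.06 ± 0.39 for NCF1, 0.91 ± 0.41 for SYT12, -0.81 ± 0.24 for SYNE2 and -0.42 ± 0.22 for C5.

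At the other timepoints the quasi-likelihood test also called 0 genes between animals that died and lived (0% each), with 998 of 11688 genes at an unadjusted p under 0.05 at B, 656 of 11892 at FR2 and 642 of 12307 at FR20. DESeq2 called 10, 3 and 0 genes at these timepoints. These fits hold 5 animals that died and 15 that lived at B, where animals 17, 19 and 21 were left out, and 18 that lived at FR2 and FR20. Nearly all of these animals are also in the FR8 comparison, so values are set side by side only. By the same criteria as at FR8, 4 libraries stand apart at B, 5 at FR2 and 6 at FR20, one of the last from an animal that died (animal 20). Without them the test called 0 genes at each timepoint, with 1096 of 11577, 767 of 11408 and 540 of 12005 at an unadjusted p under 0.05.

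SYT12 differed by 0.09 at B, 1.06 at FR2, 1.26 at FR8 and 0.49 at FR20, and by 0.20 at B, 0.97 at FR2 and 0.43 at FR20 without the libraries that stand apart. NCF1 differed by -0.32, -0.28, 0.97 and -0.60 at the 4 timepoints, and without those libraries by -0.28 at B, 0.0076 at FR2 and -0.50 at FR20. The difference between timepoints was not tested. C5 differed by -0.21, -0.54, -0.55 and -0.19 (-0.19, -0.44 and -0.21 at B, FR2 and FR20 without those libraries). HADHA differed by -0.52, -0.60, -0.72 and -0.31 (-0.53, -0.65 and -0.36). SELE differed by 2.35 at FR2 and 0.08 at FR20 (2.74 and 0.06), and was too low to be tested at B. FABP3 differed by 1.52, 1.39, 1.45 and 1.24 (1.45, 1.21 and 0.58). The median of the interferon-stimulated list was -1.05 at FR8 with 22 libraries, against -0.05 at B and -0.29 at both FR2 and FR20 (-0.09, -0.06 and -0.17). PLAT, FKBP5 and the immediate early genes, none of them called at FR8, leaned the same way at B. Whether a difference persisted between timepoints was not tested. Without the libraries that stand apart, PLAT differed by 1.19 at B, 0.98 at FR2 and -0.18 at FR20, and FKBP5 by 1.07, 0.07 and 0.83. Immediate early genes had a median of 0.31 at FR8 with 22 libraries. Their medians were 1.01 at B, 1.09 at FR2 and 0.04 at FR20 (1.08, 1.07 and 0.01).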

How the data were processed

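Liver RNA (TruSeq libraries, single reads) was sequenced by the authors, and the submitters' processing notes name CASAVA 1.8.2, TopHat 1.5.0, SAMtools, HTSeq, edgeR 3.2.4 and the Sscrofa10.2 build. The deposited table holds raw counts per Ensembl gene for 25322 identifiers, and whether counting used strand is not given in the sources used here. Symbols were matched for 12504 identifiers, 11804 from a gene name table and 700 from the study's own tables. SAA3, HP and HMOX1 had no match.

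Genes whose CPM summed to 10 or more across the fitted libraries entered edgeR 4.0.16 (R 4.3.3, TMM scaling, quasi-likelihood F test, terms for feeding group and survival). Calls needed p under 0.05 after Benjamini-Hochberg adjustment together with a log2 difference of 1 or more in size. DESeq2 1.42.0, limma 3.58.1 (voom), other filters, scaling and covariates, and leaving out each animal were the alternatives. Alternatives without the libraries that stand apart were chosen after seeing the data. The change from Baseline was fitted with the animal as block, since the same animals were sampled at both times. The exact permutation test was 2-sided, on mean log2(CPM + 1), over all splits within feeding groups. Its smallest possible p was 2e-04 with 22 libraries and 0.00076 with 16. Code was tested on simulated data.

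Named genes were the 10 with a symbol and the smallest unadjusted p in each direction where fewer than 5 were called, the member with the smallest p of each of 44 lists, and checks of tissue and inflammation. Members and lists were chosen with earlier results of these data known. Other genes named are list members, and 1 gene that the rule names is not reported here. One FR8 library was left out for depth.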

Additional observations from a re-analysis of the deposited data

Results flagged for a closer look

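Each of 118 values (74 named genes and 44 summed lists) was checked for 1 animal standing far from the other 4 animals that died, by Dixon's 95% critical value, and 8 stood out. Chance alone flags about 1 in 20 such groups. In animal 20, BCAS4 was at 55.2 CPM against 4.13 to 18.1 CPM in the other 4, and FECH was at 10.8 CPM against 14.1 to 14.9 CPM. In animal 2, MMP9 was at 4.06 CPM against 0.46 to 1.34 CPM, FKBP5 at 9.61 CPM against 23.9 to 26.6 CPM, and DGAT1 at 41.4 CPM against 21.2 to 26.0 CPM. COL6A3 was at 95.1 CPM in animal 8 against 25.3 to 45.4 CPM. TTR was at 2098 CPM in animal 7 against 1086 to 1280 CPM. NKG7 was at 18.1 CPM in animal 16 against 9.47 to 11.3 CPM.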

How the results depend on the processing

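The count of 0 called genes at FR8 was the same under all 24 alternative settings and in all 27 fits that left out 1 animal (lowest 0, highest 0), with 182 to 512 and 146 to 664 genes at an unadjusted p under 0.05. That count was 265 as reported, 512 with no filter on low counts, 426 without the feeding term and 405 with DESeq2. Among the alternative settings it was lowest, at 182, with a term for the summed striated muscle markers. The survival effect in CPF minus FS gave 0 genes, and 1 with DESeq2. The change from Baseline gave 0 genes with the animal as block and 0 with no replicate block, with 530 and 379 at an unadjusted p under 0.05. Died against lived at B gave 0 genes, 10 with DESeq2, 1 with animals 17, 19 and 21, and 0 to 3 with 1 died animal left out (3 without animal 7, 2 without 16, 1 without 20). At FR2 it gave 0, and 3 with DESeq2. The cause of these differences was not tested. Of 1665 values of the 74 named genes under other settings 1621 kept their sign, as did 1947 of 1975 with 1 animal left out.

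Log2 fold changes that reversed were mostly small. A term for striated muscle markers gave 0.395 for HBB and 0.0131 for ACTA1, and a term for neutrophil markers gave -0.0187 for ARG1. ACTA1 and ARG1 are each among the markers summed in that term, and ARG1 makes up most of the neutrophil sum. No fold is read from either value. No feeding term gave -0.00568 for CIDEC and 0.145 for the less abundant CRP identifier (ENSSSCG00000021186), for which voom gave 0.0207, a term for the last digits of the animal code 0.345 and all 23 libraries 0.034. The animal code term gave 0.00893 for COL3A1. FS animals alone gave -0.176 for ARG1 and 0.0081 for that CRP. CPF animals alone gave 0.319 for C1QA, 0.621 for COL3A1, 1.45 for HBB, 0.173 for IGF1, -0.0188 for NPM1, -0.0896 for PSMC1, 0.298 for TIMD4 and 0.0727 for TTR. Without the 5 libraries nearer another timepoint, C1QA was 0.00623, COL3A1 0.0397, HBB 0.607 and TTR 0.101. Without all 6 they were 0.00999, 0.0337, 0.498 and 0.119, with DESeq2 0.00653, 0.0317, 0.497 and 0.116, and with the likelihood ratio test 0.0100, 0.0336, 0.499 and 0.119. Without the 6, voom gave 0.00742 for HBB and 0.149 for TTR, and FS animals alone gave 0.0894 for HBB, 0.153 for TTR and -0.0918 for CIDEC. Leaving out animal 13 as well gave 0.359 for HBB, 0.0693 for TTR, -0.0125 for CIDEC and 0.295 for FMO5. With 1 animal left out of 22 libraries, values ran from -0.108 to 0.467 for CIDEC, -0.371 to 0.00307 for COL3A1, -0.216 to 0.23 for that CRP, -0.0168 to 0.301 for NKG7 and -0.0300 to 0.209 for PSMC1. With 1 died animal left out of 16 libraries, HBB was 0.874, 0.569, 0.185, 0.565 and 0.293 without animals 2, 7, 8, 16 and 20, and TTR was 0.0923, 0.0211, 0.217, 0.0819 and 0.159. Without animals 2, 8 and 20 C1QA was 0.0943, 0.0961 and 0.0400, and without animals 2, 16 and 20 COL3A1 was 0.0849, 0.172 and 0.0306. CIDEC was -0.0168 without animal 7 and -0.21 without 16, SDHB 0.00900 without 8 and 0.0524 without 20, and ITGB3 -0.000647 without 20. PSMC1 was -0.0647 and SPP1 -0.0946 without animal 2.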
